A study of Mus musculus with 12 samples.

Results

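The quadriceps muscle (QF) of dysferlin-deficient mice was compared with that of control mice on 6 of the 12 arrays of the series. The members were taken by sample title: 3 arrays of the line C57BL/10-SJL.Dysf, labelled Dysf -/- and called Dysf_null here, and 3 arrays of C57BL/10 mice, labelled Dysf +/+ and called Control. All mice were 3 weeks old and received no treatment that the labels name. The other 6 arrays hold tibialis anterior (TA) of the same genotypes at the same age, 3 each. The null line carries the SJL dysferlin allele, and sequence from SJL around it, on the C57BL/10 background. The abbreviations QF and TA are spelled out from knowledge of the study, not from the labels. The labels do not say whether the 3 replicates of a group are separate mice, so a p-value here measures the spread between arrays, part of which may be technical. The titles number the replicates 1 to 3, and arrays of equal number are compared as pairs beside the comparison of group means.

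Dysferlin sits in the membranes of muscle fibres and carries several calcium-binding C2 domains. It acts with annexins, calpains, caveolin and MG53 in closing tears of the sarcolemma, and its loss causes limb girdle and Miyoshi muscular dystrophies, which weaken some muscle groups before others. Dystrophic muscle is known for death and regrowth of fibres, entry of macrophages and deposition of collagen by fibroblasts. SJL-derived mice are known for a disease that begins slowly and becomes overt in adult life, long after the age studied here.

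The sequences of 4 gene starts are shown because these genes stand for the antigen presentation genes that rose and the metallothioneins that fell. They are RefSeq windows of build GRCm38.p6, from 250 bases before to 50 bases after the annotated start. For the metallothionein genes Mt1 (chr8:94178839-94179138, plus strand) and Mt2 (chr8:94172368-94172667, plus strand), whose products bind zinc and copper, capitals mark the core of the metal response element, TGCNCNC, on either strand. For B2m (chr2:122147437-122147736, plus strand), the light chain of class I molecules, and H2-Aa (chr17:34287774-34288073, minus strand), a class II chain, capitals mark GAAANNGAAA, a core of interferon-stimulated elements, and ATTGG, the inverted CCAAT core found in the Y box of class II promoters, both searched on both strands.
Mt1: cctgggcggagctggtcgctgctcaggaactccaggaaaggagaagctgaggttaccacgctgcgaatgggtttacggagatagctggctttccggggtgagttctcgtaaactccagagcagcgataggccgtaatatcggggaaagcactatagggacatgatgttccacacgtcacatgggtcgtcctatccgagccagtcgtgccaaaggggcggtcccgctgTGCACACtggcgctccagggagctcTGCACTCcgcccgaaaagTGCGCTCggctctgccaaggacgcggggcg
Mt2: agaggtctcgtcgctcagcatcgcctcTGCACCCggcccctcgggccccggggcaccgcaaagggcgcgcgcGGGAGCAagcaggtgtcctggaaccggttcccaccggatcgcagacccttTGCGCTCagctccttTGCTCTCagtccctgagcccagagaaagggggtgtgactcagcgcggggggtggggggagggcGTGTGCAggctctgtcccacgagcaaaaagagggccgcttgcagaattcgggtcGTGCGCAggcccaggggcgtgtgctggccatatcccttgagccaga
B2m: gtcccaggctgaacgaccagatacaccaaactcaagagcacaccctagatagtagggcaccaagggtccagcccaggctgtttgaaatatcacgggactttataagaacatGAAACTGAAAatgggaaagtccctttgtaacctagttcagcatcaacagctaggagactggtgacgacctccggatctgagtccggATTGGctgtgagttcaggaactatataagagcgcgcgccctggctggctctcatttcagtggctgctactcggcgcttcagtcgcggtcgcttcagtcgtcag
H2-Aa: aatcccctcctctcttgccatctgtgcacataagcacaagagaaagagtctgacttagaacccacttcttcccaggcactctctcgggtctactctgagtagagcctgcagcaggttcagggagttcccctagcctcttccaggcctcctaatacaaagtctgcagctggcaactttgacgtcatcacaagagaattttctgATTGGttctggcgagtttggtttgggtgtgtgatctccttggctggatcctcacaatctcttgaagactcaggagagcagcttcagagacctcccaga
Mt1 held 3 matches to the metal element core and Mt2 held 6. That core is short, and 51.0% of 32851 windows held at least 1 and 20.2% at least 2. B2m held GAAANNGAAA, which 3.44% of windows hold, at position -139 from the start. It held ATTGG at -53 and H2-Aa held it at -48, and 37.4% of windows hold that core. Matches of this kind describe the letters only.

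The transcript of Dysf itself was not analysed here, since no named probe set reads it. Values below log2 4.53, the floor, were not separated. Hoxa11, which patterns the lower limb segment, lay at the floor in QF on 6 of 6 arrays and above it in TA on 6 of 6. The 16 measured genes of the fast contractile apparatus averaged log2 12.87 to 13.14 on the 6 QF arrays. In QF both arrays with the number 2 differed from the others: their median correlation with the other arrays was 0.876 (Dysf_null) and 0.866 (Control), against 0.926 to 0.959 for the remaining 10. Transcripts such as the desmosomal gene Pkp2 were higher on them by 4.21 in Dysf_null and by 4.02 in Control than on the arrays numbered 1 and 3, and the cortactin gene Cttn was lower there in both genotypes. A difference that the arrays of a number share cancels in their pair.

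Some genes of the connective tissue, of antigen presentation and of the cytoskeleton were higher in QF of Dysf_null mice. Metallothionein and some glucocorticoid-responsive genes were lower. Proteasome genes were lower by small steps, with calls in the paired fit only. Values are log2 normalized intensities, a difference is Dysf_null minus Control on that scale, and its standard error (SE) and Benjamini-Hochberg adjusted p come from limma across all probe sets kept. Without regard to the numbers, 47 of 10331 probe sets passed an adjusted p of 0.05 (0.455%), 31 higher (0.3%) and 16 lower (0.155%). With the replicate number within each muscle as a block, 273 passed (2.64%), 174 higher (1.68%) and 99 lower (0.958%). All 47 were among the 273. The mean difference is the same in both fits. The median SE fell from 0.323 to 0.224. Below, rose and fell mean that a gene passed with the pairing, and the adjusted p is given for both fits where only the paired one passed. All 3 pair differences had one sign for each of the 273 (31.6% of all probe sets), and the 3 values of each genotype did not overlap for 208 (7.53% of all probe sets, 4.08% higher and 3.45% lower). The paired test selects for both, so these counts describe the calls and support nothing. In TA 42 probe sets passed unpaired (0.407%). The median size of the 273 differences was 0.81, and 192 were under 2-fold. Of the calls, 15 of the 47 and 61 of the 273 also passed without any single array of the 12. Both fits estimate the spread from the QF and TA arrays together, and the calls depend on this. With the QF arrays alone, which leave fewer arrays to estimate the spread, 0 of the 47 passed unpaired and 8 of the 273 paired.

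**Figure D1:**
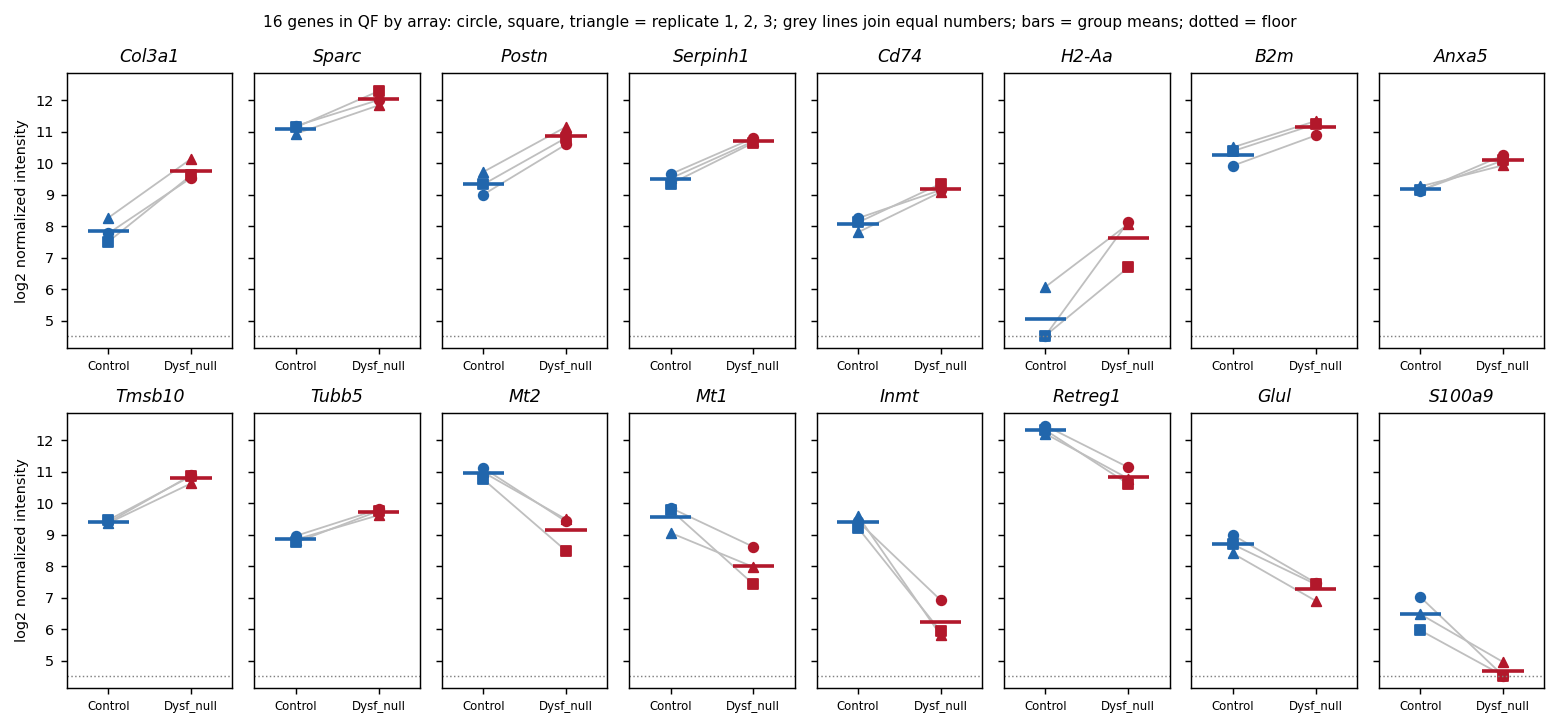
Log2 normalized intensity (vertical axis) of 16 genes on the 3 Control and 3 Dysf_null QF arrays. Circles, squares and triangles are the arrays numbered 1, 2 and 3, grey lines join equal numbers, bars are group means and the dotted line is the floor at log2 4.53. In each gene shown the lines run one way and the 3 values of each genotype do not overlap.

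Fibrillar collagens and a protein that folds them rose. Col3a1, a collagen of pliable connective tissue, was read by 3 probe sets. On the most changed one it stood at 9.54, 9.62 and 10.14 on the Dysf_null arrays numbered 1, 2 and 3 and at 7.77, 7.51 and 8.27 on the Control arrays. Every Dysf_null value lay above every Control value. The difference was 1.92 ± 0.20 (SE) unpaired and ± 0.10 paired (limma adjusted p = 0.0019 and 0.000108). The other probe sets gave 0.67 and 0.57, which passed with the pairing only (adjusted p = 0.0151 and 0.0404, against 0.223 and 0.901 unpaired). The 3 probe sets so differ in size but not in direction.

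Col1a1 and Col1a2 encode the chains of type I collagen, the main collagen of tendon and muscle connective tissue. Col1a1 read 12.83, 12.94 and 13.48 in Dysf_null and 11.67, 12.02 and 12.35 in Control. Each pair differed by about the same amount (1.16, 0.92 and 1.13), while the level itself climbed across numbers in both genotypes. Its difference of 1.07 had an SE of 0.27 unpaired and 0.07 paired (limma adjusted p = 0.16 and 0.000308). Col1a2 read 11.67, 11.76 and 12.72 in Dysf_null and 10.31, 10.18 and 11.67 in Control, so that the group ranges met at 11.67 while the pairs differed by 1.35, 1.58 and 1.05. Its difference was 1.33 (limma adjusted p = 0.368 unpaired and 0.000308 paired), and another probe set of Col1a2 gave -0.19. For both chains the pairing decided the call.

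Serpinh1, the chaperone that escorts procollagen through the endoplasmic reticulum, read 10.80, 10.65 and 10.70 in Dysf_null and 9.65, 9.35 and 9.52 in Control. Its pairs differed by 1.15, 1.31 and 1.18, and it rose in both fits (1.21 ± 0.15, limma adjusted p = 0.00452 and 0.000308). Of the 30 measured collagen and collagen processing genes, 2 rose unpaired and 11 paired, and 0 fell in either, each gene being read by its brightest probe set. The median difference of the list was 0.50, against -0.01 over all probe sets, and 27 of 30 were above 0, against 48.5%. Medians of the 3 pairs were 0.43, 0.47 and 0.44. Besides those described, the fibrillar Col5a1 and Col5a2, the microfibrillar Col6a2 and Col6a3, the fibril-associated Col14a1, the basement membrane zone collagen Col15a1 and Crtap, a subunit of the prolyl 3-hydroxylase complex, were among the 11. Their differences ran from 0.52 for Col5a1 to 1.14 for Col15a1. The basement membrane chains Col4a1 (0.29) and Col4a2 (0.20) and the cartilage collagens Col2a1 (0.11), Col9a1 (0.02) and Col10a1 (-0.53) did not pass. In TA the median of the same genes was 0.29. The interaction, that is the genotype difference in QF minus that in TA, passed for Col3a1 on its most changed probe set with the pairing (1.24, limma adjusted p = 0.00914) and not without it (adjusted p = 0.349), and for no member by the probe set with the highest mean.

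**Figure D2:**
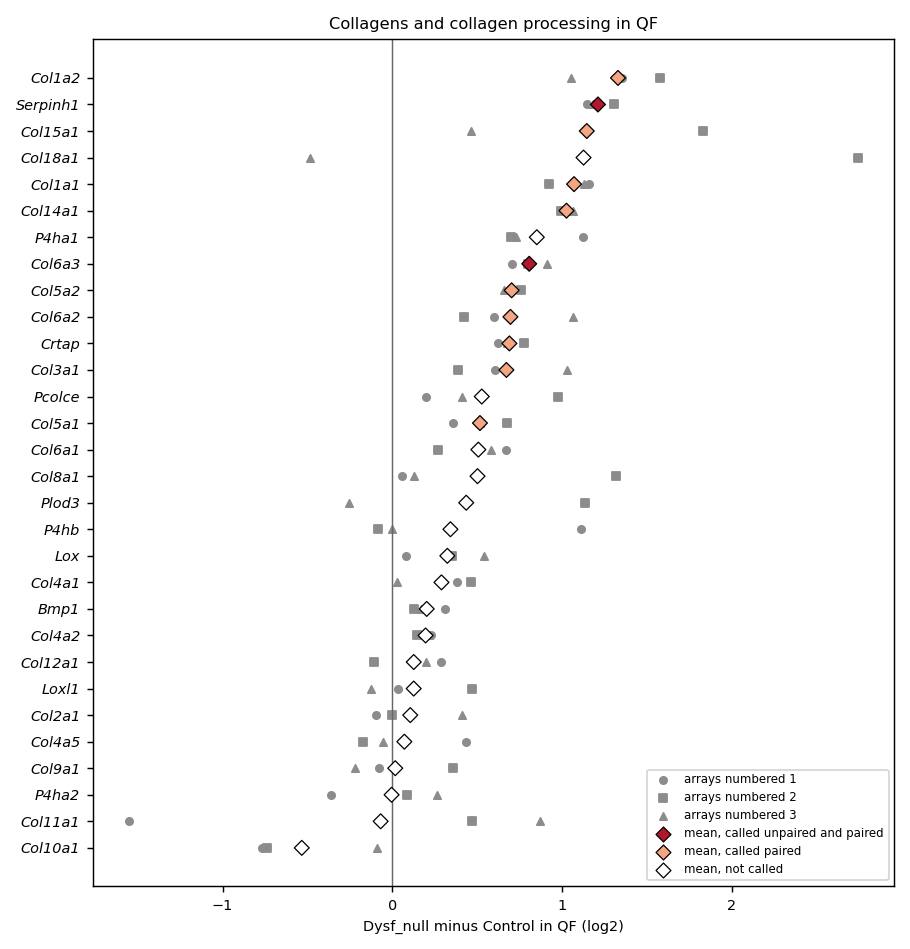
Difference Dysf_null minus Control in QF (log2, horizontal axis) for the 30 measured collagen and collagen processing genes, each by its probe set with the highest mean. Grey symbols are the 3 pairs and diamonds the mean difference, red where it passed unpaired and paired, pale where it passed paired, white where it passed in neither. The diamonds of 27 genes lie to the right of 0, and the pairs of Col18a1 and Col11a1 spread over more than 2 units.

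Glycoproteins and proteoglycans of the matrix rose with the collagens. Postn, periostin, a matrix protein of healing tissue, read 10.60, 10.81 and 11.16 in Dysf_null and 9.0, 9.33 and 9.72 in Control. The genotypes were apart on all arrays, and the pairs differed by 1.59, 1.48 and 1.43 (mean 1.5 ± 0.21 unpaired and ± 0.13 paired, limma adjusted p = 0.00654 and 0.000772). Sparc, which binds collagen and calcium, read 12.01, 12.29 and 11.84 in Dysf_null and 11.19, 11.14 and 10.94 in Control. It rose by 0.96 ± 0.13 unpaired and ± 0.08 paired (limma adjusted p = 0.00654 and 0.000772). Of 41 measured members of the list, 4 rose unpaired and 11 paired and 0 fell, with a median of 0.45 and 35 above 0. The small leucine-rich proteoglycans, which space collagen fibrils, were Fmod (1.51), Kera (1.41), Ogn (0.87) and Lum (0.75), while Dcn (0.14) and Bgn (0.47) did not pass. Vcan, a large proteoglycan of provisional matrix, read 7.57, 7.13 and 7.73 in Dysf_null and 4.75, 5.39 and 6.74 in Control, with pair differences of 2.82, 1.74 and 0.99 (limma adjusted p = 0.092 and 0.0174). The elastic fibre genes Mfap5 (1.26) and Eln (0.46) and the Sparc relative Sparcl1 (0.51) rose, and the laminin and nidogen genes of the basement membrane gave differences from -0.02 (Lamb2) to 0.80 (Nid2) without passing. Tnxb, tenascin-X, rose by 0.45 with the pairing (limma adjusted p = 0.0437, and 0.782 unpaired) and gave -0.44 in TA, where the paired interaction was 0.89 (adjusted p = 0.0342). Its call in QF was lost without any 1 of the 12 arrays (adjusted p up to 0.184) and with array weights (0.0611).

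Of 19 matrix proteases and inhibitors, 1 rose in both fits and 0 fell, with a median of 0.10. The share of all probe sets that rose was 0.3% unpaired and 1.68% paired, so 1 of 19 says little about the list. The riser was Serpinf1, a secreted serpin (1.05 ± 0.18, limma adjusted p = 0.0208 and 0.00186), of which another probe set pointed the other way. The gelatinase Mmp2 (-0.23), the collagenase Mmp13 (1.03) and the inhibitor Timp1 (0.69) did not pass.

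Secreted regulators changed in both directions. Sfrp4, a Wnt antagonist, read 7.37, 8.36 and 7.94 in Dysf_null and 4.54, 5.85 and 6.29 in Control, apart on all arrays, and rose by 2.33 ± 0.40 (limma adjusted p = 0.0242 and 0.00235). Fstl1, a follistatin-like glycoprotein, rose by 1.11 and the transforming growth factor gene Tgfb3 by 0.67, the latter with the pairing only (limma adjusted p = 0.0209, and 0.413 unpaired). Igfbp3, which carries insulin-like growth factors, fell from 9.35, 9.56 and 9.54 in Control to 8.30, 8.67 and 8.53 in Dysf_null. Its pairs differed by 1.05 or less in size, and it fell in both fits (-0.98 ± 0.15, limma adjusted p = 0.0129 and 0.00194). Igfbp4 gave 1.24 on a called probe set (limma adjusted p = 0.0422 paired and 0.106 unpaired) and values below 0 on its other 2. Of 31 measured genes of the insulin-like and transforming growth factor families, 4 rose and 1 fell with the pairing, and 2 rose and 1 fell without it (median 0.13). C1qtnf3, a secreted relative of complement C1q, rose by 1.82 ± 0.32 (limma adjusted p = 0.028 and 0.00526). Myostatin, Mstn, the brake on muscle growth, gave 0.04 and did not pass.

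Markers of fibroblasts and tendon moved with the matrix genes. The summed intensity of 24 fibroblast markers was 29052 to 41362 on the Dysf_null arrays and 19797 to 28447 on the Control arrays, and that of 9 tendon markers 4254 to 4992 and 2734 to 2992. Sums without overlap were common among the lists, also where 0 members were called. For fast fibre genes they were 183327 to 197427 in Dysf_null and 198872 to 206794 in Control. For endothelial and mural cell markers they were 8332 to 9072 and 7615 to 8147. Such sums are therefore given as description. Of the fibroblast markers 6 rose and 1 fell with the pairing (1 and 0 unpaired, median 0.31). Those that rose were Col1a1, Col1a2, Dpt, Thy1, Lum and Mfap5, most of which are matrix genes themselves, and Dpep1 fell by 0.70. The receptors that define the cells, Pdgfra (0.23) and Pdgfrb (0.17), did not pass. Of 9 tendon markers 4 rose, Fmod, Kera, Col14a1 and Htra1, while the tendon transcription factor Scx gave 0.43 and did not pass. The part of either cell type in the matrix result was not tested, and in a bulk muscle more cells of a type and more RNA per cell cannot be told apart.

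**Figure D3:**
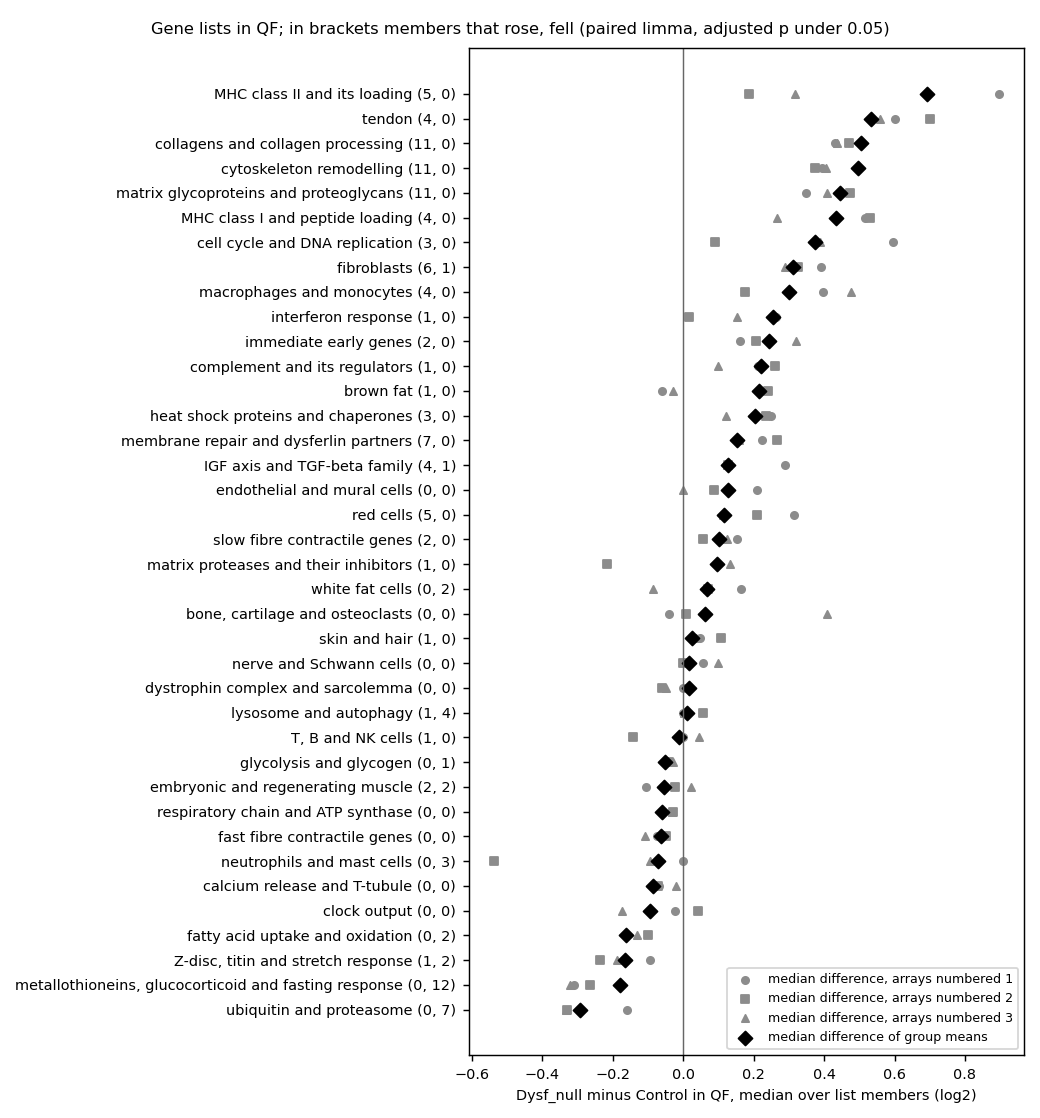
Median difference Dysf_null minus Control in QF (log2, horizontal axis) of 38 gene lists (the sex-linked list, with 1 measured gene, is not drawn), as a black diamond for the group means and grey symbols for the 3 pairs; brackets give how many members rose and fell with the pairing. Medians of the lists drawn run from -0.29 for ubiquitin and proteasome genes to 0.69 for class II genes, whose 3 pair medians spread the most among the lists above 0.4.

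Antigen presentation genes of both classes rose. Class II molecules show peptides from engulfed material and are made by macrophages and dendritic cells, and class I molecules are made by most cells. H2-Aa, the class II gene whose start is printed above, read 8.14, 6.69 and 8.07 in Dysf_null and 4.53, 4.53 and 6.07 in Control, where 2 arrays were at the floor. Every Dysf_null array lay above every Control array, and the difference of 2.59 ± 0.47 is limited by the floor (limma adjusted p = 0.0314 and 0.00473). Cd74, the invariant chain that loads class II molecules, read 9.15, 9.35 and 9.09 in Dysf_null and 8.26, 8.12 and 7.81 in Control. It rose by 1.14 ± 0.17 (limma adjusted p = 0.00961 and 0.00186). H2-Ab1 (1.71), H2-Eb1 (1.06) and the protease that trims the invariant chain, Ctss (0.91), passed with the pairing only (unpaired limma adjusted p = 0.132, 0.066 and 0.296). Of 13 class II genes 2 rose unpaired and 5 paired and 0 fell, with a median of 0.69. The medians of the 3 pairs were uneven, at 0.90, 0.19 and 0.32. The transactivator Ciita gave -0.55 and H2-Oa -0.99, and neither passed.

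B2m, whose start is also printed, read 10.88, 11.24 and 11.34 in Dysf_null and 9.92, 10.39 and 10.51 in Control. Its 3 pairs differed by 0.96, 0.86 and 0.84, and it rose by 0.88 ± 0.16 unpaired and ± 0.08 paired (limma adjusted p = 0.0314 and 0.00104). H2-K1 rose in both fits on 1 of 3 probe sets (0.74 ± 0.12), and another of them gave -0.20. H2-D1 (0.68) and the immunoproteasome subunit Psmb9 (1.42) rose with the pairing, with 2 of 3 Control arrays of Psmb9 at the floor. Of 18 class I genes 2 rose unpaired and 4 paired and 0 fell, with a median of 0.43. The H2 genes are close copies of each other, so their probe sets may share signal. The interaction did not pass for H2-Aa, Cd74, B2m or H2-K1, whose differences in TA were 2.54, 1.26, 0.92 and 0.86.

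Of 29 interferon response genes 1 rose with the pairing, Ifitm3 (0.53, limma adjusted p = 0.0329, and 0.35 unpaired), and the list median was 0.26. The share of all probe sets that rose with the pairing was 1.68%. A single call in this list, or in the complement and lymphocyte lists below, so says little about the list. The antiviral genes Mx1 (-0.54), Mx2 (-0.93), Ifit1 (-0.15) and Isg15 (-0.07) did not pass. Of 17 complement genes 1 rose with the pairing, C1qa (0.62). C1qb gave 0.84 on a called probe set and 0.22 on its brighter one. Of 37 macrophage markers 4 rose with the pairing and 0 unpaired, and 0 fell (median 0.30). They were the lysozyme Lyz2 (0.82), Ctss, C1qa and the chemokine Ccl9 (0.81). Their summed intensity was 7054 to 7615 in Dysf_null and 5383 to 6020 in Control. The defining markers Adgre1 (0.55), Csf1r (0.28) and Cd68 (0.16, against -1.27 in TA, with a paired interaction of 1.43 and limma adjusted p = 0.0328) did not pass, and 0 of the 37 were at the floor on all 6 arrays. The part of these cells in the antigen presentation result was not tested. Of 18 lymphocyte markers 1 rose, Thy1 (1.19 ± 0.23), which fibroblasts also express, and the T cell gene Cd3g (-0.09) and the B cell gene Cd79a (-0.19) did not pass.

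Of 19 granulocyte and mast cell markers 3 fell with the pairing, 1 of them unpaired, and 0 rose, with a median of -0.07. The share of all probe sets that fell was 0.958% with the pairing and 0.155% unpaired. S100a9, which neutrophils store in quantity, read 4.53, 4.53 and 4.96 in Dysf_null and 7.02, 5.96 and 6.48 in Control. With 2 Dysf_null arrays at the floor, the fall of 1.82 ± 0.33 understates the difference (limma adjusted p = 0.028 and 0.0112). Its partner S100a8 fell by 1.58 and the granule peptide gene Camp by 1.26 with the pairing (limma adjusted p = 0.0457 and 0.0268, and 0.132 and 0.27 unpaired). The paired call of S100a8 was lost without any 1 of the 12 arrays (adjusted p up to 0.175), with the deposited scaling (0.0711) and with the lower floor (0.051), and that of Camp without any 1 of 8 (up to 0.147). Granule genes such as Ngp (-0.26), Ltf (0.02) and Mpo (0.10) did not pass. In TA the genotype difference ran the other way. Dysf_null and Control means were 7.41 and 4.67 for S100a9 in TA, against 4.67 and 6.49 in QF. The interaction was -4.56 ± 0.46 for S100a9 and -3.89 ± 0.54 for S100a8 (limma adjusted p = 0.00115 and 0.0128 unpaired). For S100a9 the low group lay at or near the floor in both muscles, so its differences and interaction are limited by the floor and are not exact sizes.

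Metallothioneins and genes that glucocorticoids or fasting induce fell in QF. Mt2, whose start is printed above, read 9.42, 8.49 and 9.49 in Dysf_null and 11.12, 10.76 and 10.99 in Control. Mt1 read 8.61, 7.43 and 7.97 in Dysf_null and 9.86, 9.79 and 9.06 in Control. For both genes the Dysf_null values lay below all Control values, and the pair numbered 2 differed most. Mt2 fell by 1.82 ± 0.22 (limma adjusted p = 0.00439 and 0.000308) and Mt1 by 1.56 ± 0.28 (adjusted p = 0.028 and 0.00653). The brain form Mt3 gave -0.04 and did not pass.

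Retreg1, a receptor that sends endoplasmic reticulum to autophagy, read 11.14, 10.61 and 10.78 in Dysf_null and 12.46, 12.32 and 12.21 in Control, and fell by 1.49 ± 0.16 (limma adjusted p = 0.0019 and 0.000739). Of 36 measured genes of the list, 7 fell unpaired and 12 paired and 0 rose, with a median of -0.18. The other members that fell in both fits were Bnip3, a mitophagy receptor (-1.24), Fkbp5, a co-chaperone of the glucocorticoid receptor (-1.20), Eif4ebp1, a repressor of translation (-1.04), and Igfbp3. With the pairing the transcriptional regulators Cited2 (-0.85), Zbtb16 (-0.82) and Cebpd (-0.75), the mTOR inhibitor Ddit4 (-0.80) and the sestrin Sesn1 (-0.48) fell too, and another probe set of Zbtb16 gave 0.09. Other known targets did not pass, among them Pdk4 (-0.16), Sgk1 (0.16), Per1 (0.15), Foxo3 (-0.44) and Tsc22d3 (-0.48). Glul, glutamine synthetase, fell on 1 probe set from 8.99, 8.69 and 8.41 in Control to 7.47, 7.43 and 6.90 in Dysf_null (-1.43 ± 0.24, limma adjusted p = 0.0208 and 0.00186), and gave -0.27 on its brighter one. Cdkn1a, a cell cycle inhibitor, gave -1.90 on a called probe set and -0.12 on its brighter one.

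**Figure D4:**
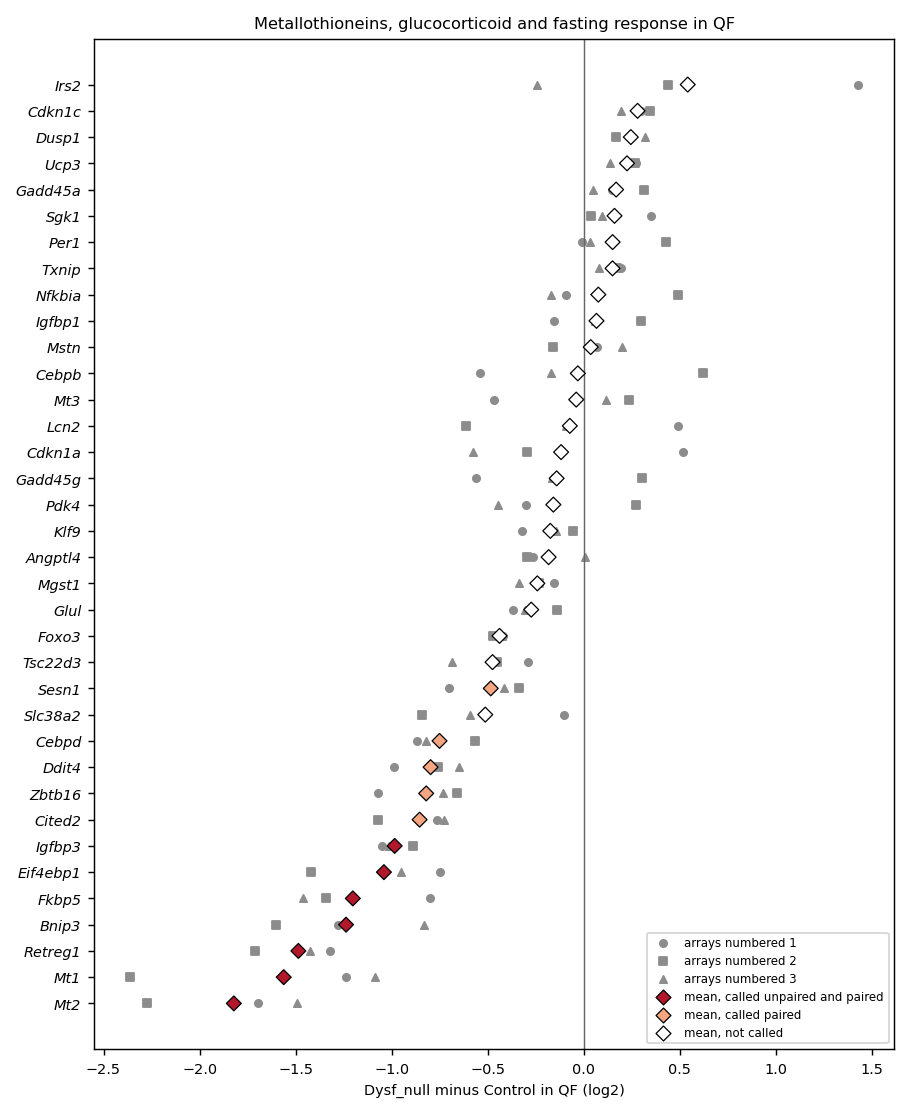
Difference Dysf_null minus Control in QF (log2, horizontal axis) for the 36 measured metallothionein, glucocorticoid and fasting response genes, each by its probe set with the highest mean, with symbols as in the plot of collagens. The 12 coloured diamonds all lie to the left of 0, from -0.48 (Sesn1) to -1.82 (Mt2).

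Inmt, a methyltransferase of small amines, showed the largest fall among the genes that passed unpaired. It read 6.92, 5.93 and 5.80 in Dysf_null and 9.42, 9.22 and 9.60 in Control, a difference of -3.20 ± 0.39, or 9.17-fold (limma adjusted p = 0.00439 and 0.000308). Gpx3, a secreted glutathione peroxidase, fell by 1.21 with the pairing (limma adjusted p = 0.00542, and 0.0598 unpaired), and the retinaldehyde dehydrogenase gene Aldh1a1 by 0.85 in both fits.

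Several of these falls were larger in QF than in TA by the paired interaction, in which 32 of 10331 probe sets passed (0.31%), against 7 unpaired (0.0678%). They were Inmt (interaction -2.30, limma adjusted p = 0.0321), Ddit4 (-1.65, 0.0044), Glul (-1.38, 0.0342), Bnip3 (-1.23, 0.0342), Retreg1 (-1.18, 0.0328) and Cebpd (-0.98, 0.0192). In TA the differences of Bnip3 and Glul were -0.01 and -0.05, and that of Ddit4 was 0.85. Without the pairing the interaction of these 6 genes did not pass (limma adjusted p from 0.125 for Retreg1 and Ddit4 to 0.412 for Glul).

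Autophagy genes fell in part. Of 38 lysosome and autophagy genes 2 fell unpaired, the lysosomal protease Ctsl (-0.79 ± 0.12, limma adjusted p = 0.0102 and 0.00321) and the cholesterol transporter Npc1 (-0.94 ± 0.17). With the pairing 4 fell and 1 rose (median 0.01), the others being the cargo receptor Sqstm1 (-0.76) and Gabarapl1 (-0.52), while the protease Ctsh rose by 0.96. Map1lc3b, which coats autophagosomes, read 9.96, 8.84 and 9.90 in Dysf_null and 10.81, 10.28 and 10.73 in Control. It fell by 1.04 on that probe set (limma adjusted p = 0.00282 paired and 0.116 unpaired) and gave -0.37 on its brighter one. The paired interaction passed for Map1lc3b (-1.14, limma adjusted p = 0.0342) and Ctsl (-0.87, 0.036). The lysosomal genes Lamp1 (0.05), Ctsd (-0.07) and Ctsb (0.20) and the autophagy genes Becn1 (-0.16) and Atg5 (-0.07) did not pass.

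Proteasome genes were lower by small steps on most pairs. Of 40 ubiquitin and proteasome genes 7 fell with the pairing, 0 fell unpaired and 0 rose. The median was -0.29, 35 of 40 were below 0, and for 31 all 3 pairs were below 0, against 16.1% of all probe sets. Psmd4, the subunit that captures ubiquitin chains, read 9.90, 9.61 and 9.76 in Dysf_null and 10.50, 10.02 and 10.68 in Control. Its fall of 0.64 passed with the pairing only (limma adjusted p = 0.0183, and 0.204 unpaired). The lid subunits Psmd7 (-0.52) and Psmd11 (-0.47), the ATPases Psmc2 (-0.35) and Psmc6 (-0.47), the core subunit Psmb3 (-0.45) and the conjugating enzyme Ube2g1 (-0.49) fell likewise. None of these 7 calls held under the removal of each array in turn: that of Psmc2 was lost without any 1 of the 12, and those of Psmd4 and Psmd7 without any 1 of 4. Psmd11 was lower on 2 of its 3 probe sets and gave 0.14 on the third. Summed over the list, intensity was 42416 to 46824 in Dysf_null and 53521 to 58490 in Control, without overlap, as in many other lists.

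Cytoskeletal genes rose. Tmsb10, a thymosin that binds actin monomers, read 10.89, 10.86 and 10.63 in Dysf_null and 9.39, 9.47 and 9.37 in Control, apart by more than 1 unit, and rose by 1.38 ± 0.19 (limma adjusted p = 0.00617 and 0.000308). Tmsb10 is among the 100 measured genes nearest to Dysf, which may lie in sequence from SJL, and the part of that sequence was not tested. Tpm4, a tropomyosin of non-muscle filaments, read 9.90, 10.06 and 10.07 against 9.04, 9.18 and 9.12, and its pairs differed by 0.86, 0.88 and 0.95 (0.89 ± 0.11, limma adjusted p = 0.00452 and 0.000772). The tubulin gene Tubb5 rose on both probe sets that were called (0.87 and 0.99). Of 42 genes of the list 7 rose unpaired and 11 paired and 0 fell, with a median of 0.50. The others that rose in both fits were Marcks, a membrane-bound actin regulator (1.49), the tubulins Tubb6 (1.00) and Tuba1c (0.65) and the cytoplasmic actin Actg1 (0.65). The unpaired call of Tuba1c was lost without any 1 of the 12 arrays (limma adjusted p up to 0.152) and with the deposited scaling (0.0758). That of Actg1 was lost without any 1 of 11 (up to 0.167) and with the deposited scaling (0.38). Those of Tubb6 and Marcks were lost without any 1 of 3 and of 2. The microtubule regulator Stmn1 (1.29), the LIM proteins Crip1 (0.81) and Csrp1 (0.65) and thymosin Tmsb4x (0.53) rose with the pairing. Beta actin Actb (0.23), vimentin Vim (-0.17) and smooth muscle actin Acta2 (0.49) did not pass. Tubb6 gave -0.75 in TA, and its interaction was 1.75 ± 0.24 (limma adjusted p = 0.0119).

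Membrane repair genes changed in their annexin branch. Anxa5, an annexin that forms lattices at membrane tears, read 10.25, 10.09 and 9.94 in Dysf_null and 9.12, 9.14 and 9.27 in Control, and rose by 0.92 ± 0.12 (limma adjusted p = 0.00464 and 0.00203). S100a6, a calcium-binding partner of annexins, read 10.63, 10.64 and 10.58 against 9.57, 9.09 and 9.78 and rose by 1.14 ± 0.15 (limma adjusted p = 0.00617 and 0.00243). Of 30 genes of the list 2 rose unpaired and 7 paired and 0 fell, with a median of 0.15. With the pairing Anxa1 (0.63), Anxa2 (0.78), Anxa3 (0.88), the annexin A2 partner S100a10 (0.68) and the caveolar coat gene Cavin1 (0.39) rose. Anxa1 also rose in both fits on another probe set (1.24), and another probe set of Cavin1 gave -0.46. Caveolin-3, Cav3 (-0.12), the annexins Anxa4 (0.08), Anxa6 (0.14) and Anxa7 (-0.30), the calpain Capn3 (0.24) and the AHNAK scaffold Ahnak (0.08) did not pass. Annexins A1, A2 and A5 and S100a6 are expressed by fibroblasts and macrophages as well as by fibres, and the part of those cells was not tested.

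Of 15 genes of the complex that links dystrophin to the matrix 0 rose and 0 fell in either fit, with a median of 0.02. Over all probe sets 0.455% passed unpaired and 2.64% paired. A count of 0 in 15 lies near those shares and says little about the complex. At an unadjusted p of 0.05, 699 of 10331 probe sets passed unpaired and 1585 paired. Dystrophin Dmd gave -0.37, alpha-sarcoglycan Sgca -0.45, dystroglycan Dag1 0.17 and utrophin Utrn -0.08.

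Of 26 heat shock and chaperone genes 1 rose unpaired and 3 paired and 0 fell (median 0.20). Single genes of the secretory pathway that passed in the paired fit are given here as values. They were picked out after their values were seen, apart from Pdia6, named for its size, and Hspa5 and Hsp90b1, of the heat shock list, and no count is drawn from them. Hspa5, the Hsp70 of the endoplasmic reticulum, read 10.74, 10.20 and 10.58 in Dysf_null and 9.83, 9.72 and 10.11 in Control (0.62, limma adjusted p = 0.0113 paired and 0.183 unpaired). Hsp90b1 rose by 0.52. The disulfide isomerase Pdia6 (1.39, with 2 Control arrays at the floor), the retrieval receptor Kdelr3 (1.12), the calcium-binding protein Calu (0.87), the oligosaccharyltransferase subunits Rpn1 (0.86) and Rpn2 (0.51), the stress-induced factor Manf (0.85) and the translocon subunit Sec61b (0.78) rose as well. Kdelr3 and Calu passed without any single array, and the other 7 were each lost without at least 1, from 10 of the 12 for Rpn2 and Pdia6 to 1 for Sec61b. The cytosolic chaperones Hspa8 (0.24), Hsp90aa1 (0.43) and Hspa1a (-0.14) did not pass.

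Of the contractile lists of the fibre itself, only the slow one held calls. Of 16 fast fibre genes 0 rose and 0 fell, with a median of -0.06. Over all probe sets 2.64% passed with the pairing, so 0 of 16 says little. Of 15 slow fibre genes 2 rose with the pairing and 0 without it (median 0.10), where 1.68% of all probe sets rose with the pairing. Myl2, the slow myosin light chain, read 11.17, 11.21 and 11.27 in Dysf_null and 10.76, 10.52 and 10.62 in Control (0.58 ± 0.12, limma adjusted p = 0.0575 unpaired and 0.00902 paired). Csrp3, the muscle LIM protein of the Z-disc, read 9.22, 8.55 and 9.24 against 8.63, 7.84 and 8.87, so the groups overlapped while the pairs differed by 0.59, 0.71 and 0.37 (limma adjusted p = 0.7 and 0.0141). The slow myosin heavy chain Myh7 (-0.20) and troponin Tnnt1 (-0.01) did not pass. Z-disc proteins Xirp1 (-0.57) and Nrap (-0.53), which serve myofibril assembly, fell with the pairing. Smyd1, a methyltransferase that sarcomere assembly needs, rose by 0.90 on 1 probe set with the pairing (limma adjusted p = 0.00621, and 0.146 unpaired), and its other probe set gave -0.39.

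Genes of fibre regrowth passed in both directions. Of 32 embryonic and regenerating muscle genes 2 rose and 2 fell with the pairing, with a median of -0.06. Over all probe sets 1.68% rose and 0.958% fell with the pairing. The imprinted genes Mest (1.17) and Peg3 (0.59), which are active in young tissue, rose, and Xirp1 and the muscle regulator Myf6 (-0.50) fell. Embryonic myosin Myh3 read 4.90, 6.87 and 4.96 in Dysf_null and 5.45, 6.83 and 5.18 in Control, high on the arrays numbered 2 of both genotypes. It gave -0.24 and did not pass, as did Myog (-0.28), Myod1 (-0.19) and the neonatal myosin Myh8 (0.01). Of 51 cell cycle genes 1 rose unpaired, Tubb5, and 3 paired, with Stmn1 and Cks1b (1.59), and 0 fell. The list median was 0.37, with pair medians of 0.60, 0.09 and 0.39. The proliferation marker Mki67 gave 1.30 on a called probe set and -0.65 on its brighter one. Of 27 immediate early genes Fos (1.58) and Klf4 (0.86) rose with the pairing, and 0 passed unpaired.

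In the metabolic lists calls came with the pairing only, where 0.958% of all probe sets fell. Of 57 respiratory chain and ATP synthase genes 0 passed in either fit, with a median of -0.06. Of 32 fatty acid genes 2 fell with the pairing, Acads (-0.47) and Mlycd (-0.47), and another probe set of Acads pointed the other way. Of 30 glycolysis and glycogen genes 1 fell with the pairing, the phosphorylase kinase subunit Phka1 (-0.53). Of 24 white fat markers 2 fell with the pairing and 0 rose, with a median of 0.07. The lipid droplet coat gene Plin4 read 8.17, 8.72 and 7.94 in Dysf_null and 9.56, 9.31 and 9.02 in Control (-1.02, limma adjusted p = 0.0598 unpaired and 0.00939 paired), and the lipase gene Pnpla2 fell by 0.70. The adipocyte markers Adipoq (-0.01) and Lep (0.02) did not pass, and summed intensity of the 24 white fat markers overlapped between genotypes.

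Some red cell genes and the brown fat gene Ucp1 rose. Alas2, which starts haem synthesis, read 10.19, 9.39 and 9.43 in Dysf_null and 9.09, 8.56 and 8.46 in Control (0.96, limma adjusted p = 0.133 unpaired and 0.00235 paired). The alpha globin Hba-a1 (0.53) and beta globin Hbb-b2 (0.67) rose with the pairing, and Bpgm (0.72 ± 0.14) and the poly(A) polymerase Tent5c (1.26 ± 0.20) in both fits. Of 14 red cell genes 5 rose paired and 2 unpaired and 0 fell, the median was 0.12, and summed intensity was 31524 to 35645 in Dysf_null and 21936 to 23334 in Control. The list did not move together: 6 of the 14 lay below 0, 3 of them in all 3 pairs, and the lowest difference was -0.87. Alas2 had the larger difference in TA (2.00), with a paired interaction of -1.04 (limma adjusted p = 0.0328). Ucp1, the uncoupling protein of brown fat, read 7.45, 7.62 and 7.60 against 6.21, 5.71 and 5.86 and rose by 1.63 ± 0.27 (limma adjusted p = 0.0181 and 0.00995). Another probe set of Ucp1 gave 0.60 and did not pass. The unpaired call was lost with the lower floor (limma adjusted p = 0.175) and with array weights (0.0695). It was also lost without Dysf_null_QF 3 or Control_QF 2 (up to 0.0681). Of the other brown fat markers Cidea (0.24), Cox8b (-0.07) and Cox7a1 (-0.07) did not pass. Markers of endothelial and mural cells (median 0.13), nerve (0.02) and bone and cartilage (0.06) had 0 members called in either fit, where 2.64% of all probe sets passed paired. Among skin markers Sprr1b rose by 0.45 with the pairing.

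Of 17 calcium release genes and of 14 clock genes 0 passed in either fit, with medians of -0.09 for each. Over all probe sets 2.64% passed with the pairing, so 0 in lists of this size says little. Among the 100 measured genes nearest to Dysf on chromosome 6, 50 on each side, 1 rose unpaired, Tmsb10. With the pairing Reep1 (0.37), Tmsb10 and Rpn1 rose and Paip2b (-0.91) and Slc6a6 (-0.71) fell, where 2.64% of all probe sets passed. The median difference of the 100 genes was 0.02. Each gene was read here by its brightest probe set. Of all 132 probe sets of these genes 6 passed with the pairing, among them a less bright one of Rab7 (-0.73). These genes may lie in sequence from SJL, and whether SJL alleles bind the probes less or more was not tested.

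**Figure D5:**
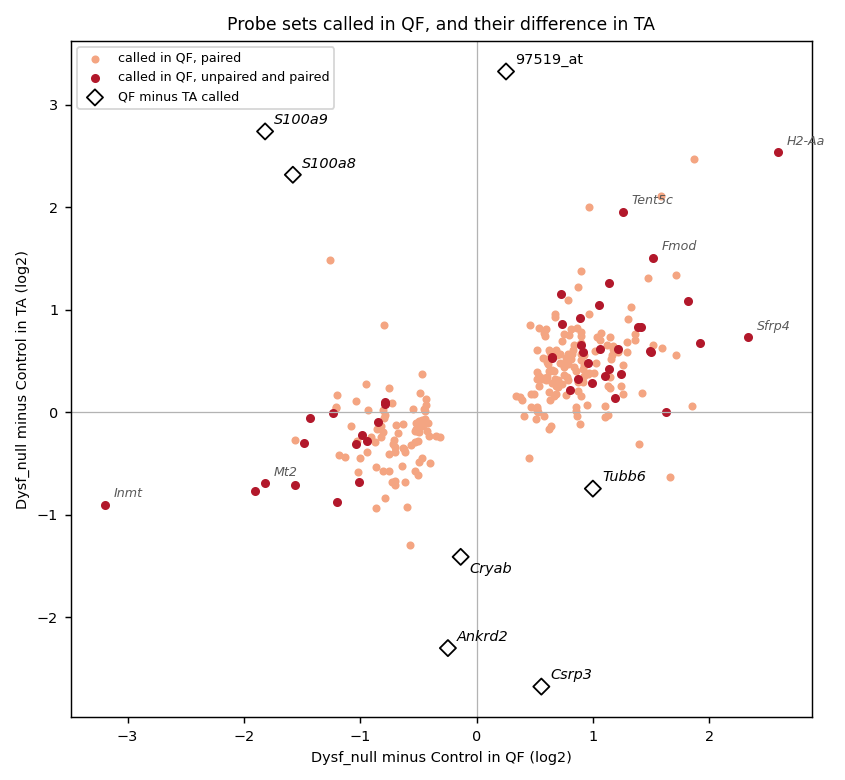
Difference Dysf_null minus Control in QF (horizontal axis) and in TA (vertical axis), both log2, for probe sets called in QF and for those whose QF minus TA difference passed unpaired (diamonds). H2-Aa lies near 2.59 in QF and 2.54 in TA, Inmt near -3.20 and -0.90, and S100a9 and S100a8 lie at the upper left, below 0 in QF and above 0 in TA.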

How the data were processed

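The 12 samples are total RNA of muscle on 1-colour arrays, 3 per genotype in each of QF and TA. The deposited value of a probe set on an array is a linear intensity. The array mean without the outer 2% at each end was 200.11 to 200.16, so the deposited intensities had been scaled to one mean. Software and background correction: not given in the sources used here.

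Of 12488 probe sets 66 controls were left out. The other 12422 were quantile normalized, floored at the 25th percentile (intensity 23.025) and logged to base 2. Of these, 10331 exceeded the floor on at least 3 of 12 arrays and entered 1 limma model (limma 3.58.1, R 4.3.3) of all 12 arrays, with group means and an intensity trend, two-sided, adjusted over the 10331 by Benjamini-Hochberg. Residual degrees of freedom were 8, and 4 with the replicate number within muscle as a block. Deviations from group means correlated between QF arrays of equal number at 0.39, 0.71 and 0.66, and between TA arrays at 0.18, 0.11 and 0.23, so the numbers were taken to pair arrays. That pairing comes from the titles and this check, since nothing says what a number stands for. The scripts were tested on simulated data. No depth applies to arrays, whose number limits precision.

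Names came from the platform annotation (10833 probe sets with 1 symbol, 396 with several, 1193 not listed, the latter groups unnamed), covering 7310 genes. In lists, the probe set with the highest mean stands for a gene. Members and lists (39, of which 884 of 1175 genes were measured) were chosen with earlier results of these data known, so lists are described and not tested. Named were the 20 largest called differences each way per fit whose groups did not overlap (unpaired) or whose pairs had one sign (paired), every called list member and the 6 of lowest p per list, up to 10 interactions each way, and genes standing out on the arrays numbered 2. Genes of the lists that did not pass and other probe sets named beyond this were chosen after their values were seen, as were Smyd1 and the secretory genes. Python 3.11.15 and matplotlib 3.10.9 drew figures.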

Additional observations from a re-analysis of the deposited data

Results flagged for a closer look

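The genotype difference of 6 named probe sets differed between QF and TA by limma's interaction test (QF minus TA, adjusted over 10331 probe sets). S100a9 (-4.56 ± 0.46, adjusted p = 0.00115) and S100a8 (-3.89 ± 0.54, 0.0128) were lower in Dysf_null QF and higher in Dysf_null TA than in Control. Since the low S100a9 groups lay at or near the floor, its value is not an exact size, and the QF call of S100a8 was lost without any 1 of the 12 arrays. Csrp3 (3.23 ± 0.34, 0.00142) had means of 9.01 in Dysf_null and 8.45 in Control QF, and of 10.12 and 12.80 in TA. Ankrd2, a titin-binding ankyrin repeat protein (2.05 ± 0.23, 0.00156), gave -0.25 in QF and -2.30 in TA. Tubb6 (1.75 ± 0.24, 0.0119) gave 1.00 in QF and -0.75 in TA. Cryab, a small heat shock protein (1.27 ± 0.20, 0.0339), gave -0.14 in QF and -1.41 in TA on 1 probe set, and the interaction on its other probe set was -0.32 ± 0.51 (adjusted p = 1.00). With the replicate block all 6 passed too, with adjusted p from 1.31e-05 for Csrp3 to 0.0167 for Cryab and S100a8.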

How the results depend on the processing

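The replicate block leaves each mean difference as it is, so it could not change a direction. It called 273 probe sets in QF against 47 with no replicate block, and 32 interactions against 7. Other settings gave, unpaired and paired, 7 and 47 without the intensity trend, 2 and 116 without both QF arrays numbered 2, and 16 and 133 without them when the filter was applied to the 10 remaining arrays, an alternative added after the data were seen. Array weights gave 23 unpaired, and no filter on low values gave 76 paired, with 12422 probe sets tested. QF arrays alone gave 0 with limma (406 at an unadjusted p under 0.05) and 8 with the replicate block (1183). Leaving out 1 array gave 21 (without Dysf_null_QF replicate 3) to 82 (without Control_QF replicate 3) unpaired, 89 (without Dysf_null_QF replicate 1) to 228 (without Dysf_null_TA replicate 1) paired and 4 to 8 interactions. Where a QF array was left out the paired count fell to 89 to 131. By design the block takes up an array left without its partner, so the whole pair leaves the paired difference. Without Dysf_null_QF 2, Control_QF 2 or both the paired counts were 116, 115 and 116. Where a paired call is said to be lost without a number of arrays, the 2 arrays of a pair thus largely repeat each other. Of the 47 calls 7 passed without the trend, and of the 273 43 did. No called probe set changed sign under any setting (0 of 47 and 0 of 273). Leaving out arrays could not turn a sign. The groups of the 47 did not overlap, and the pairs of the 273 had one sign. For those settings the count supports nothing. The scaling as deposited, no floor, a lower floor and a stricter filter kept all counts within 1.5 times, but not all of the same calls. With the deposited scaling 31 of the 47 unpaired and 260 of the 273 paired calls passed. Unpaired calls lost there included Actg1 (limma adjusted p = 0.38), Col6a3 (0.302), H2-K1 (0.13), B2m (0.1) and Ctsl (0.0601). The 15 unpaired calls that held without any single array were those of Tmsb10, Tpm4 and Tubb5, of Col3a1, Serpinh1, Sparc and Postn, of Cd74, of S100a6 and Anxa5, and of Mt2, Inmt, Retreg1, Bnip3 and Ctsl. H2-Aa, B2m, Mt1, Kera, Fkbp5 and S100a9 did not (adjusted p up to 0.141, 0.133, 0.137, 0.113, 0.12 and 0.11). Of these, H2-Aa, B2m and Mt1 did so with the pairing. Paired calls such as Ctss, H2-Eb1, C1qb, Hspa5, Ddit4 and Zbtb16 did not pass without Dysf_null_QF 1 or Control_QF 1 (adjusted p up to 0.0601, 0.0627, 0.0627, 0.0595, 0.0637 and 0.0646).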
